A study of Arabidopsis thaliana with 10 samples.

Results

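Transcripts of 4 Arabidopsis thaliana genes were followed by microarray: the tryptophan synthesis genes TSA1 (AT3G54640), TSB2 (AT4G27070) and IGPS (AT2G04400) and the transcription factor gene MYB34 (AT5G60890, also ATR1). They were taken by name, with earlier results of these data known, so the shares of all probe sets given below are no test of these genes. Each had 1 probe set of the 22810 on the Affymetrix ATH1 array. All 4 were called Present on all 10 arrays, and all 4 were among the 15382 probe sets tested. The plants were either Ri17, a line in the Col-0 background in which RNA interference targets JAV1, or Col-0 wild type, all 21 days old. Both were sampled under 5 conditions, which were no treatment, 1 h or 4 h of methyl jasmonate (MeJA, 100 µM), and 30 min or 60 min from wounding by forceps. The forceps crushed the midrib of 4 leaves per rosette and harmed some 30% of the blade. Every genotype and condition has a single array, Ri17 is 1 line, and the MeJA and wounding comparisons share the same pair of untreated arrays.

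Tryptophan is made in the plastid from chorismate, the last common precursor of the aromatic amino acids. Anthranilate synthase starts the branch, and a transferase and an isomerase follow. Indole-3-glycerol phosphate synthase (IGPS) then closes the indole ring, the alpha subunit of tryptophan synthase (TSA1) releases indole, and the beta subunit (TSB2) joins it to serine. In Brassicaceae such as Arabidopsis, tryptophan also feeds indole glucosinolates, defence compounds of wounded and jasmonate-treated leaves. MYB34 is an R2R3-MYB activator of tryptophan and indole glucosinolate genes, first found through a mutant with altered tryptophan regulation. JAV1 is known as a repressor of jasmonate-mediated defence.

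Present calls numbered 12971 to 13905 per array, and the median signal ran from 122.4 to 134.3 arbitrary units. The deposited design text places the MeJA plants in MS medium and has no array of plants given that medium without MeJA. The medium and MeJA cannot be told apart in these arrays. The leaf genes RCA, CA1 and GAPA were Present on all 10 arrays, and their summed signal was 69646.4 and 77606.6 at 1 h of MeJA in Ri17 and Col-0, 43589.9 and 51668.4 at 4 h, 54022.9 to 84486.2 on the 4 wounded arrays and 73779.6 to 83822.7 on the 2 untreated arrays. Of the 5 root genes measured, PIN2, EXPA7 and PER39 were Present on 0 arrays. NRT2.1, a root nitrate transporter gene Present on 2 wounded arrays only, had 9.2 to 20.3 units on the MeJA arrays, 86.9 to 193.1 on the wounded arrays and 108.5 to 132.2 on the untreated arrays. PYK10, a beta-glucosidase gene of roots, had 901.9 to 2457.9 units on the MeJA arrays, 22.0 to 243.8 on the wounded arrays and 27.3 to 95.3 on the untreated arrays, the opposite direction to NRT2.1. The summed root signal was 937.8 to 2522.2 units on MeJA arrays, most of it from PYK10, 163.4 to 418.9 on wounded arrays and 186.9 to 263.4 on untreated arrays. The part of root material in the MeJA results below was not tested. The level of JAV1 in Ri17 was not analysed here, because none of the named probe sets stands for it. In bulk tissue, fewer cells of a type and less RNA per cell cannot be told apart.

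TSA1, TSB2 and IGPS rose after 4 h of MeJA and again 60 min after wounding, by 2.87-fold to 4.0-fold, while MYB34 rose 60 min after wounding and passed in neither MeJA comparison with untreated. The values for each gene follow, as signal on every array in arbitrary units. Differences are on the log2 scale with the standard error of limma's fit, and each is the mean of a Ri17 difference and a Col-0 difference. A difference was called where its Benjamini-Hochberg adjusted p over all 15382 probe sets was under 0.05.

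TSA1 had 1220.2 units in untreated Ri17, 1771 after MeJA for 1 h and 5276 after 4 h. In Col-0 it had 1031 units untreated, 1748 after 1 h and 3158 after 4 h. In both genotypes the 4 h array stood above the 1 h array and that above the untreated one. The difference at 4 h was 1.86 ± 0.22 (3.64-fold, limma adjusted p = 0.000847), of which Ri17 gave 2.11 and Col-0 1.61. At 1 h it was 0.65 ± 0.22 and missed the threshold (limma adjusted p = 0.0623), although both genotypes were higher than untreated.

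TSB2 stayed near its untreated level at 1 h. It had 1703 units in untreated Ri17, 1809 at 1 h and 5896 at 4 h. In Col-0 the values were 1708, 1697 and 4778 units over the same series. The 1 h difference was 0.04 ± 0.20 (95% interval -0.44 to 0.52, limma adjusted p = 0.917). At 4 h TSB2 was higher by 1.64 ± 0.20 (3.11-fold, limma adjusted p = 0.00106). The name of this probe set marks it as matching several transcripts, so TSB2 and its close copy TSB1 cannot be told apart here.

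IGPS had 1701 units in untreated Ri17, 2387 at 1 h and 4988 at 4 h of MeJA. In Col-0 it had 1503 units untreated, 2629.9 at 1 h and 4353.5 at 4 h. As for TSA1, both genotypes were higher at 1 h than untreated and higher again at 4 h. The difference was 0.65 ± 0.24 at 1 h (limma adjusted p = 0.0783) and 1.54 ± 0.24 at 4 h (2.91-fold, limma adjusted p = 0.00252).

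MYB34 was lowest at 4 h of MeJA. It had 675 units in untreated Ri17, 756 at 1 h and 334.5 at 4 h, and in Col-0 513 untreated, 698 at 1 h and 404 at 4 h. The 4 h array held the lowest MYB34 signal of the 5 in each genotype. The difference from untreated was 0.30 ± 0.24 at 1 h (limma adjusted p = 0.369) and -0.68 ± 0.24 at 4 h (95% interval -1.23 to -0.12, limma adjusted p = 0.0583), and neither passed. MYB34 at 4 h was lower than at 1 h by -0.98 ± 0.24 (limma adjusted p = 0.0338, lower in both genotypes). That call was lost without either 1 h or either 4 h array (differences of -1.21 to -0.75), and also with the MeJA and untreated arrays fitted alone (adjusted p = 0.0703). Over all probe sets tested, 15.7% were higher at 1 h and 18.8% at 4 h of MeJA against untreated, and 7.93% were lower at 4 h than at 1 h. Of the 4 genes, 0 passed at 1 h and 3 were higher at 4 h. The leaf gene GAPA was lower at 4 h (-0.91, limma adjusted p = 0.0107), and RCA (-0.55) and CA1 (-0.72) missed the threshold. The part of this in the 4 h results was not tested.

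**Figure D1:**
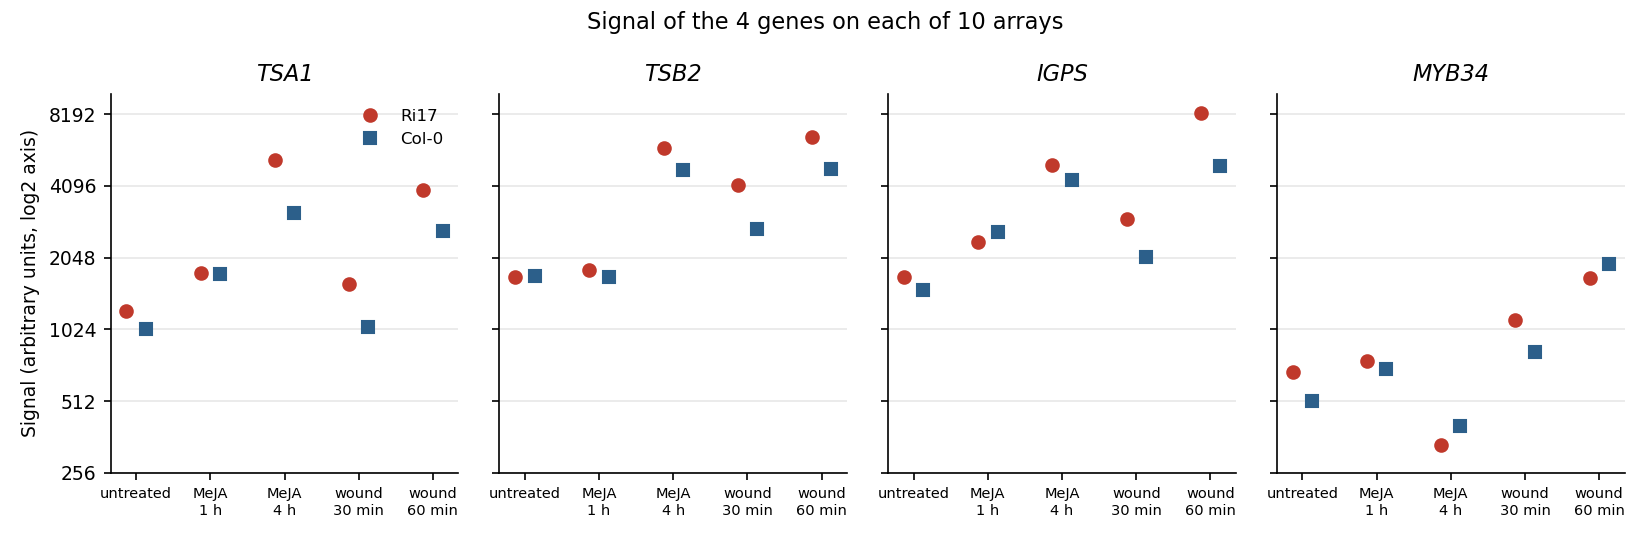
Signal of TSA1, TSB2, IGPS and MYB34 on each array (arbitrary units, log2 axis), in Ri17 (circles) and Col-0 (squares), with 1 array per point. The 3 enzyme genes are high at 4 h of MeJA and 60 min after wounding, while MYB34 is lowest at 4 h of MeJA. Heights are comparable within a gene and not between genes.

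At 30 min after wounding TSB2 passed the threshold and the other 3 genes did not, which is no test of a difference between the genes. Its signal was 4111 units in wounded Ri17 against 1703 untreated, and 2706 in wounded Col-0 against 1708 untreated. The difference was 0.97 ± 0.20 (1.96-fold, limma adjusted p = 0.0168). It missed the threshold without the wounded Ri17 array (0.77, limma adjusted p = 0.116), without the untreated Ri17 array (0.78, limma adjusted p = 0.0709) and with wounded and untreated arrays fitted alone (limma adjusted p = 0.0824). IGPS was higher in both genotypes at 30 min, with 2965 units in Ri17 and 2062 in Col-0, and its difference of 0.63 ± 0.24 was not called (limma adjusted p = 0.114). TSA1 had 1588 units in Ri17 and 1042 in Col-0, within 0.38 and 0.02 log2 of untreated (0.20 ± 0.22, limma adjusted p = 0.593). MYB34 had 1122 units in Ri17 and 820.5 in Col-0 (0.71 ± 0.24, limma adjusted p = 0.0788). Over all probe sets, 9.63% were higher at 30 min.

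At 60 min all 4 genes were higher in both genotypes, where 12.1% of all probe sets were called higher. IGPS had the largest difference of the 4, with 8275.5 units in Ri17 and 4945 in Col-0, a difference from untreated of 2.0 ± 0.24 (4.0-fold, limma adjusted p = 0.00104). TSB2 reached 6589 units in Ri17 and 4803 in Col-0 (1.72 ± 0.20, limma adjusted p = 0.00103). TSA1 reached 3930.2 and 2640.4 units in Ri17 and Col-0 (1.52 ± 0.22, limma adjusted p = 0.0024). MYB34 had 1679 units in Ri17 and 1934 in Col-0, the highest of its series in each (1.62 ± 0.24, 3.06-fold, limma adjusted p = 0.00241). These 4 calls held without any single array, with differences of 1.40 to 2.28. The median of all probe sets was -0.14 in the same comparison.

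**Figure D2:**
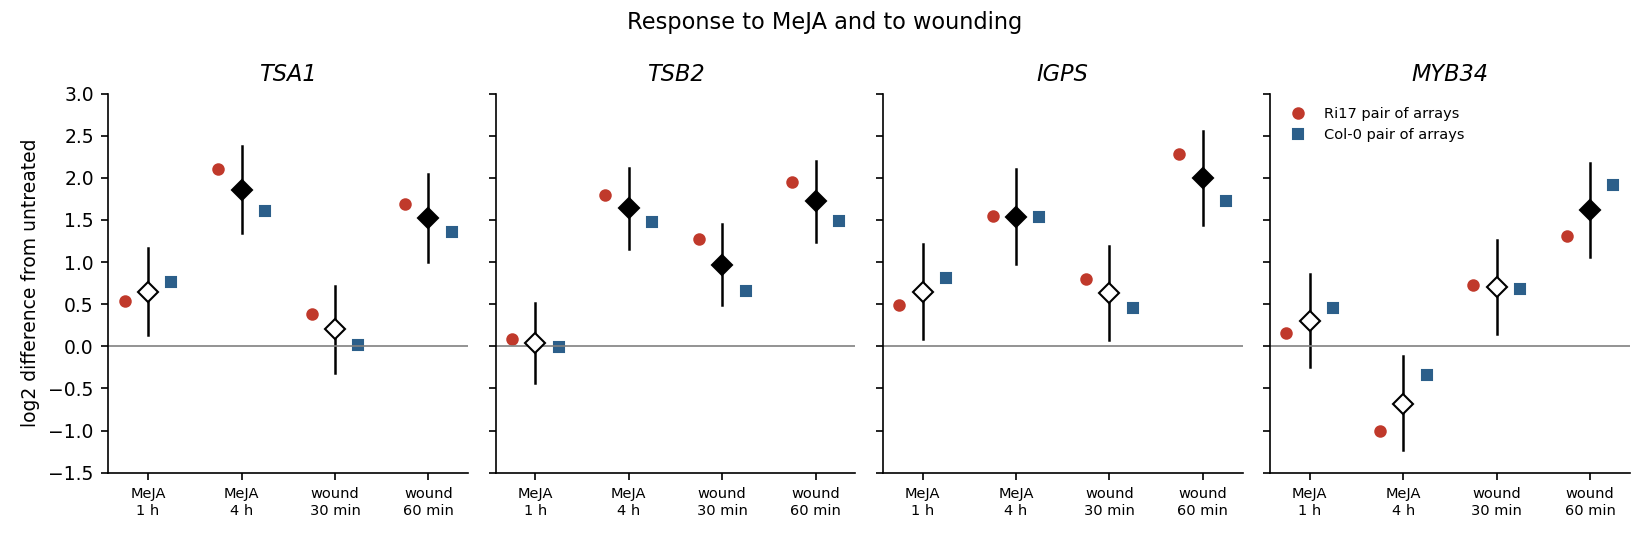
Log2 difference from untreated for each gene after MeJA and wounding: diamonds are the mean over both genotypes with its 95% interval (filled where the adjusted p was under 0.05), circles the Ri17 pair and squares the Col-0 pair of arrays. The 3 enzyme genes are filled at 4 h and 60 min, TSB2 also at 30 min, and MYB34 only at 60 min. The intervals are not adjusted for the number of probe sets, and some open diamonds have intervals clear of 0. These are MYB34 at 4 h (-1.23 to -0.12) and 30 min (0.15 to 1.26). The others are TSA1 at 1 h (0.13 to 1.17) and IGPS at 1 h (0.09 to 1.21) and 30 min (0.07 to 1.19).

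Between 30 and 60 min TSA1 was higher by 1.32 ± 0.22 (limma adjusted p = 0.0294) and IGPS by 1.37 ± 0.24 (limma adjusted p = 0.0325). TSB2 (0.75 ± 0.20) and MYB34 (0.91 ± 0.24) were higher at 60 min in both genotypes and missed the threshold (limma adjusted p = 0.0884 and 0.0792). Of all probe sets 2.67% were called higher here. Both calls were lost with the wounded and untreated arrays fitted alone (limma adjusted p = 0.156 for TSA1 and 0.159 for IGPS). Leaving out 1 array ended the TSA1 call for 8 of the 10 arrays, all but the untreated pair (1.22 to 1.43), and the IGPS call for 7, all but the untreated pair and wounded Col-0 at 60 min (1.09 to 1.65).

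Between 1 h and 4 h of MeJA TSB2 rose by 1.60 ± 0.20 (limma adjusted p = 0.00492), a larger difference than 97.6% of probe sets. TSA1 was higher by 1.21 ± 0.22 (limma adjusted p = 0.0143) and IGPS by 0.90 ± 0.24 (limma adjusted p = 0.0478). At this step 6.69% of all probe sets were called higher. The IGPS call was lost with quantile normalisation (limma adjusted p = 0.0506) and without any 1 of 8 arrays, all but the pair wounded for 60 min (0.62 to 1.17). The TSA1 call was lost without any 1 MeJA array (0.95 to 1.47), and that of TSB2 without either 1 h array or the Ri17 4 h array, where it was 1.48 to 1.72.

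The order of the 5 conditions, by the geometric mean of both genotypes, was not the same for the 4 genes. It was read from the same arrays as the tests between neighbours, and their adjusted p-values do not allow for that choice. TSA1 ran from 4 h of MeJA (4081.5 units) through 60 min of wounding (3221), 1 h of MeJA (1759.5) and 30 min of wounding (1286.5) to untreated (1122). Of its neighbours in this order, 60 min of wounding and 1 h of MeJA alone passed the threshold (0.87 ± 0.22, limma adjusted p = 0.0218). For TSB2 the order was 60 min of wounding (5626), 4 h of MeJA (5307.5), 30 min of wounding (3335), 1 h of MeJA (1752) and untreated (1706). Its 4 h arrays and its 30 min arrays differed (0.67 ± 0.20, limma adjusted p = 0.0426), as did its 30 min and its 1 h arrays (0.93 ± 0.20, limma adjusted p = 0.0147), and the other neighbours missed the threshold. Of all probe sets, 17.9% were lower at 30 min of wounding than at 4 h of MeJA, and 13.3% were higher at 30 min than at 1 h.

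For IGPS the order was 60 min of wounding (6397), 4 h of MeJA (4660.1), 1 h of MeJA (2505.5), 30 min of wounding (2472) and untreated (1599). Among its neighbours the 4 h and 1 h steps were the only pair past the threshold. MYB34 ran from 60 min of wounding (1802) through 30 min (959.5), 1 h of MeJA (726.2) and untreated (588.1) to 4 h of MeJA (367.6), and no neighbouring pair passed. At its ends, the 60 min arrays were higher than the 4 h MeJA arrays by 2.29 ± 0.24 (4.9-fold, limma adjusted p = 0.000735), with 2.33 in Ri17 and 2.26 in Col-0. This pair was picked as the highest and lowest on the same arrays, which that p-value does not allow for. For the enzyme genes the same comparison gave -0.34 ± 0.22 for TSA1, 0.08 ± 0.20 for TSB2 and 0.46 ± 0.24 for IGPS, with limma adjusted p-values of 0.269, 0.786 and 0.178. In it, 14.8% of all probe sets were called higher.

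At the same elapsed time, 60 min after wounding against 1 h of MeJA gave higher signal for all 4 genes. The difference was 1.68 ± 0.20 for TSB2 (limma adjusted p = 0.0014), 1.35 ± 0.24 for IGPS (limma adjusted p = 0.0057), 1.31 ± 0.24 for MYB34 (limma adjusted p = 0.00606) and 0.87 ± 0.22 for TSA1. Among all probe sets 14.2% were called higher here. The median probe set was at -0.16 in this comparison and at -0.01 after scaling each array to its median. The IGPS and MYB34 calls were lost without the Ri17 1 h array (limma adjusted p = 0.0566 and 0.0518). The TSA1 call was lost without that array or either array wounded for 60 min (0.61 to 1.13). Treatment, medium and tissue handling differ between these arrays and cannot be told apart.

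Over the 10 arrays, the 3 enzyme genes followed each other more closely than they followed MYB34. Pearson's r of log2 signal was 0.907 for TSA1 with IGPS, 0.899 for TSB2 with IGPS and 0.811 for TSA1 with TSB2. With MYB34 it was -0.03 for TSA1, 0.23 for TSB2 and 0.33 for IGPS. Without the MeJA 4 h pair, a choice made after the data had been seen, the 8 remaining arrays gave 0.83, 0.93 and 0.91 for TSA1, TSB2 and IGPS with MYB34. Without the 2 arrays farthest from the MYB34 median, those wounded for 60 min, the same values were -0.68, -0.39 and -0.48. The sign of the relation of MYB34 to the enzyme genes thus rests on which of those pairs is counted. The points share arrays, scaling and the untreated pair, and these values carry no test.

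**Figure D3:**
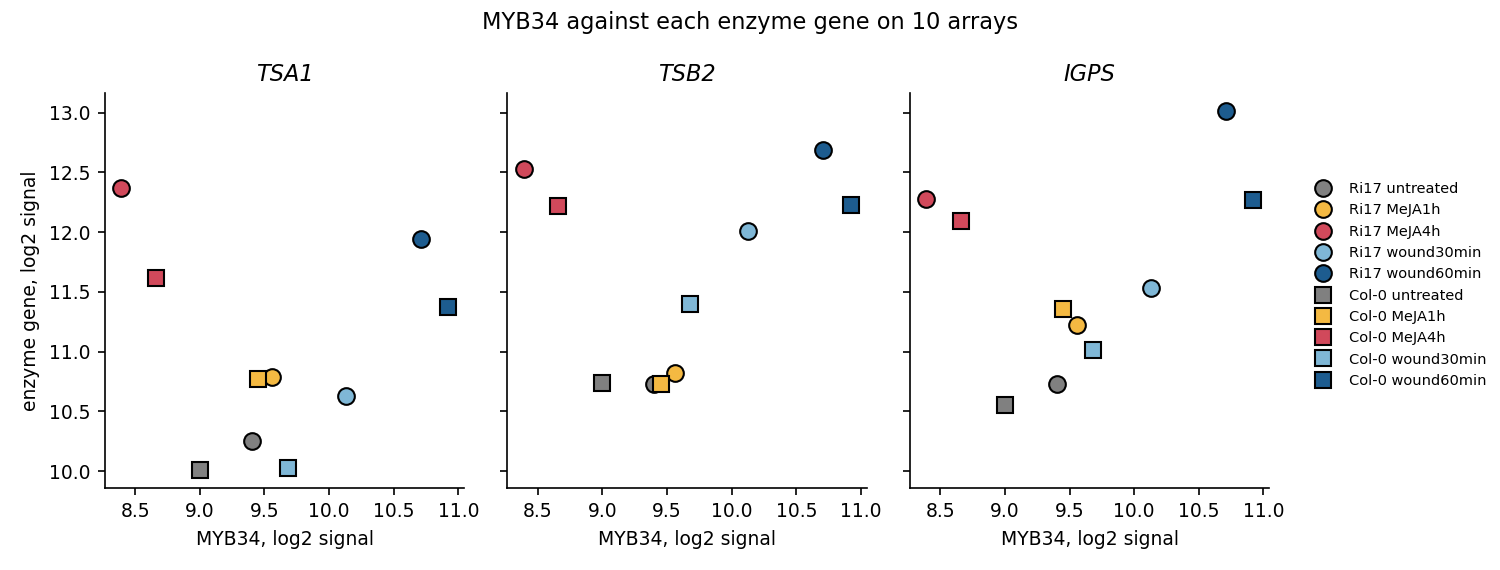
Log2 signal of MYB34 (horizontal axis) against TSA1, TSB2 and IGPS (vertical axis) on 10 arrays, circles for Ri17 and squares for Col-0, coloured by condition. The MeJA 4 h arrays lie at the left, with low MYB34 and high enzyme signal, and the 60 min arrays at the upper right.

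The other enzymes of the branch were taken from a list of 15 tryptophan genes, of which 11 had a probe set, the 3 enzyme genes above included. The remaining 8 were Present on all 10 arrays. At 4 h of MeJA 6 of these 8 were higher and 1 lower, with a median difference of 1.75 against 0.0 for all probe sets. At 1 h, 4 were higher and 3 lower (median 0.79 against 0.01). After wounding 3 were higher and 1 lower at 30 min (0.35 against -0.08), and 4 higher and 1 lower at 60 min (0.78 against -0.14). Of all probe sets, 15.8% were called lower at 1 h of MeJA, 18.7% at 4 h, 10.5% at 30 min of wounding and 16.1% at 60 min.

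The anthranilate synthase genes were called at the early times too. ASA1, an alpha subunit of this first and feedback-controlled enzyme, was higher by 1.41 at 1 h of MeJA and 2.35 at 4 h, by 1.01 at 30 min of wounding and 1.97 at 60 min (limma adjusted p = 0.000724 to 0.0371). Its signal in Ri17 was 919 units untreated, 3096 at 1 h and 6775 at 4 h of MeJA. In Col-0 it was 1295, 2727 and 4579.8 units over the same steps. The beta subunit probe set ASB1, which several near-identical genes share, rose in all 4 comparisons as well, by 0.89 to 2.16. ASA2, a second alpha subunit gene, rose at 1 h (1.1) and 4 h (1.75) of MeJA and at 30 min of wounding (1.04), and was at 0.67 at 60 min (limma adjusted p = 0.115). That ASA1 passed at 1 h where TSA1 did not is no test of the difference between the genes.

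PAT1, the phosphoribosyltransferase of the next step, was close to TSA1, with 1.74 at 4 h of MeJA and 1.39 at 60 min of wounding called and 0.69 and 0.53 at the early times not called. The isomerase probe set PAI1, also shared by near-identical genes, had large differences under MeJA. It rose by 2.45 at 1 h and 2.82 at 4 h of MeJA, against 0.18 at 30 min (not called) and 0.88 at 60 min of wounding. Its 60 min wounded arrays were lower than its 1 h MeJA arrays by -1.57 (limma adjusted p = 0.00185), as were 20.3% of all probe sets.

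For 3 relatives of these enzymes, some of the calls were in the lower direction. IGPS2 (AT5G48220), of the same enzyme family as IGPS, was lower at 1 h (-1.13) and 4 h (-1.18) of MeJA, with 462 units in Ri17 and 621 in Col-0 at 4 h against 1433 and 1022 untreated. After wounding it was at -0.13 and -0.34, neither called. INS (AT4G02610), a homologue of TSA1 that forms free indole, was lower at 1 h of MeJA (-0.96) and not called at the other times. A probe set described only as a tryptophan synthase beta chain was lower at 1 h of MeJA (-1.05) and at 30 and 60 min of wounding (-1.12 and -0.90), and higher at 4 h of MeJA (1.26). Between 1 h and 4 h it was higher by 2.31 (limma adjusted p = 0.00248). Its description names no gene, and it is counted among the 8 as a beta chain.

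**Figure D4:**
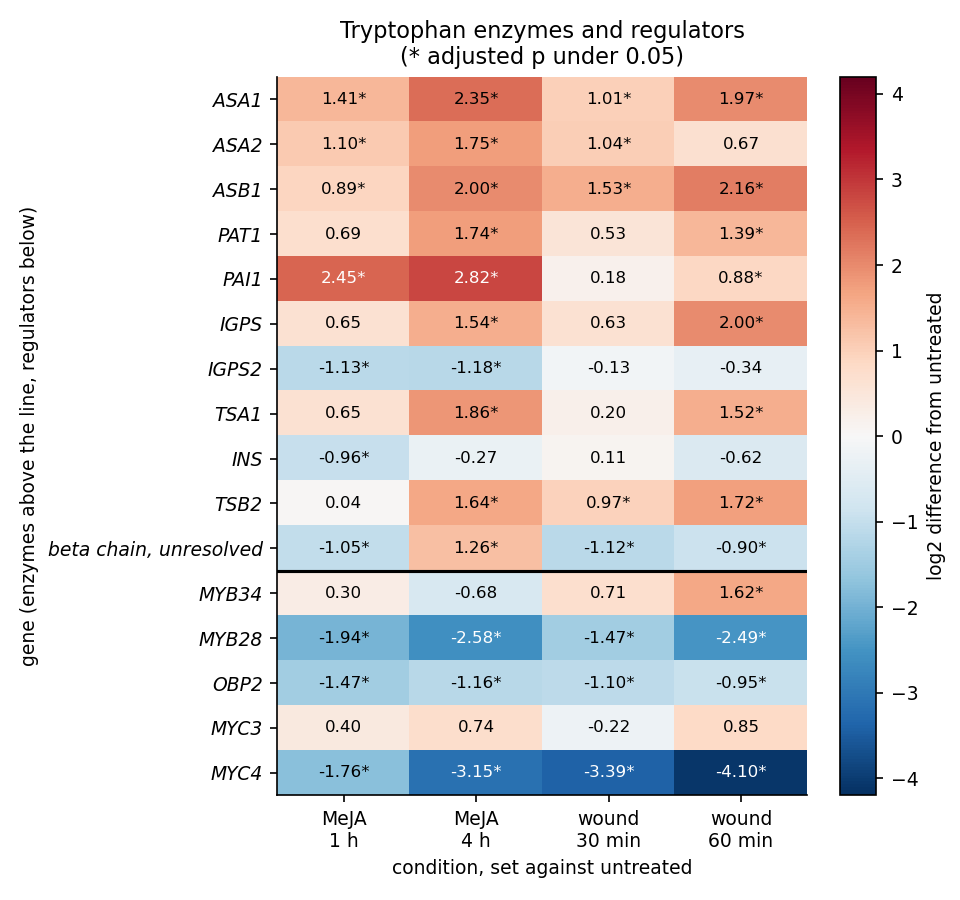
Log2 difference from untreated of 11 tryptophan enzyme probe sets and 5 regulators after MeJA and wounding, with an asterisk where the limma adjusted p was under 0.05. Most enzymes are higher at 4 h and 60 min. IGPS2, INS and the unresolved beta chain are lower at 1 h of MeJA, IGPS2 also at 4 h and the beta chain at both wounding times. Of the 5 regulators shown, MYB34 alone is called higher.

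Of 11 regulators listed, 5 had a named probe set. The other listed MYB regulators of indole glucosinolates, MYB51 and MYB122, had none and are not compared with MYB34 here. MYB28, an activator of aliphatic glucosinolate genes, fell in all 4 comparisons, with differences of -1.94 and -2.58 at 1 h and 4 h of MeJA and of -1.47 and -2.49 at 30 and 60 min of wounding. MYC4, a bHLH factor of the jasmonate response, fell as well, with -1.76, -3.15, -3.39 and -4.1 over the same comparisons. The DOF factor gene OBP2 fell in all 4 too (-1.47 to -0.95). MYC3, a relative of MYC4, lay between -0.22 and 0.85 and passed in 0 of the 4. The median of the 4 regulators without MYB34 was -1.72 at 60 min of wounding, where MYB34 was at 1.62.

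Upstream of the branch, 6 of 10 genes for chorismate synthesis were measured. DHS1, one of the aldolases that start the shikimate pathway, rose in all 4 comparisons, by 3.62 and 4.06 with MeJA and by 2.37 and 3.87 with wounding. DHS3, another of them, was higher at 60 min of wounding alone (1.23). EMB1144, chorismate synthase, was lower at 30 min (-0.69), and DHS2, DQS and MEE32 passed in 0 comparisons. The median of the 6 was 0.45 at 4 h of MeJA and 0.24 at 60 min of wounding, against 0.0 and -0.14 for all probe sets.

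Chorismate mutases, which lead to phenylalanine and tyrosine, split. CM3 rose in all 4 comparisons by 2.35 to 3.64, CM1 fell in all 4 (-2.11 to -0.94), and CM2 passed in 0.

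Downstream, 3 of 17 indole glucosinolate genes were named, so the pathway that uses the tryptophan is largely not analysed here. GSTF10, a glutathione transferase, was higher at 4 h of MeJA (0.78) and 60 min of wounding (1.09). CYP81F1, a hydroxylase, was lower at 4 h (-1.13) and 30 min (-1.57), and UGT74B1, the glucosyltransferase, passed in 0 comparisons. Among 3 aliphatic glucosinolate genes, BCAT4 was higher at 1 h of MeJA (0.65) and both wounding times (1.31 and 1.13). CYP83A1 was lower at 1 h and 4 h of MeJA (-0.68 and -0.96), and UGT74C1 at both MeJA times and 60 min of wounding (-0.98, -0.91 and -1.65). The nitrilase gene NIT3 was higher at 1 h (1.51) and 4 h (2.02) of MeJA, while the probe set of NIT2 passed in 0. Of the sulfate assimilation genes, ATPS3, called Absent on both untreated arrays (962.8 units in Ri17 and 1116.4 in Col-0), was higher at both MeJA times and 30 min of wounding (2.63, 1.67 and 1.59), and APR3 at both MeJA times (1.08 and 1.69). The jasmonate synthesis and response genes AOS, OPR3, LOX2 and VSP1 rose in all 4 comparisons, by 1.33 to 5.52. The names of the NIT2 and VSP1 probe sets mark them as matching several transcripts, so each may hold signal of other genes.

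Ri17 was compared with Col-0 to see whether these genes differed in the JAV1 RNA interference line. Over the 5 conditions, Ri17 minus Col-0 was 0.44 ± 0.14 for TSA1 (95% interval 0.11 to 0.77), 0.29 ± 0.13 for TSB2 (-0.01 to 0.60), 0.30 ± 0.15 for IGPS (-0.05 to 0.66) and 0.10 ± 0.15 for MYB34 (-0.25 to 0.45). None of the 4 passed (limma adjusted p = 0.799 for the enzyme genes and 0.919 for MYB34). Of all 15382 probe sets 0 passed (0.0%), while 951 had an unadjusted p under 0.05. The TSA1 difference ran from 0.02 at 1 h of MeJA, where 49.2% of all probe sets lay lower, to 0.74 at 4 h (97.3%). How many of all probe sets keep the same sign over the 5 conditions was not counted.

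Within conditions, Ri17 minus Col-0 of the 3 enzyme genes lay between -0.14 and 0.24 untreated and at 1 h of MeJA, and between 0.20 and 0.74 in the other 3 conditions. The conditions were grouped so after these values had been seen, and the ranges overlap. Untreated, TSB2 had 1703 units in Ri17 and 1708 in Col-0, and at 1 h of MeJA TSA1 had 1771 in Ri17 and 1748 in Col-0. After 30 min of wounding Ri17 was higher than Col-0 by 0.61 for TSA1, 0.60 for TSB2 and 0.52 for IGPS. After 60 min it was higher by 0.57, 0.46 and 0.74, and at 4 h of MeJA by 0.74, 0.30 and 0.20. Each of these is a difference between 2 single arrays and has no error. At 30 min, 11% of all probe sets were higher in Ri17 by at least 0.5, and at 60 min 14.2%.

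The authors' deposited table gives a change call for each pair of arrays, made from the probe pairs of 1 array against another and not from repeated plants. In the authors' deposited table TSA1, TSB2 and IGPS were each called increased in Ri17 at 30 and 60 min of wounding, with log2 ratios of 0.4 to 0.7 and change p-values of 2e-05 to 0.000552. The share of all probe sets called increased there was 10.6% at 30 min and 13.9% at 60 min. At 4 h of MeJA the authors' deposited table called TSA1 (0.8) and TSB2 (0.4) increased, with 7.55% of all probe sets, and IGPS (0.3) marginally so. For untreated plants and 1 h of MeJA it gave no change for all 3 enzyme genes. Of the 8 other tryptophan probe sets, the authors' deposited table called ASA1, ASB1 and PAT1 increased in Ri17 at both 4 h of MeJA and 30 min of wounding, and PAT1 also at 60 min. IGPS2 was called decreased at 60 min in the authors' deposited table, as were 12.6% of all probe sets. In untreated plants the authors' deposited table called IGPS2 increased (with 12.4% of all probe sets) and INS decreased (with 13.6%). At 1 h of MeJA the authors' deposited table called ASB1 and the beta chain probe set increased, with 6.12% of all probe sets.

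For MYB34 the sign varied between conditions. Ri17 minus Col-0 was 0.40 untreated, 0.11 at 1 h and -0.27 at 4 h of MeJA. It was 0.45 at 30 min and -0.20 at 60 min of wounding. The authors' deposited table called MYB34 increased in Ri17 at 30 min (0.3), marginally increased untreated (0.3), and not changed at the other 3 conditions.

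Whether the Ri17 difference was larger after wounding than under MeJA was tested as an interaction with 2 residual degrees of freedom. It was 0.61 ± 0.24 for IGPS (95% interval -0.03 to 1.24, limma adjusted p = 0.526) and 0.33 ± 0.22 for TSB2 (limma adjusted p = 0.668). TSA1 was at 0.21 ± 0.31 and MYB34 at 0.20 ± 0.32, with limma adjusted p-values of 0.85 and 0.86. Over all probe sets 0 passed (0.0%) and 1483 had an unadjusted p under 0.05.

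**Figure D5:**
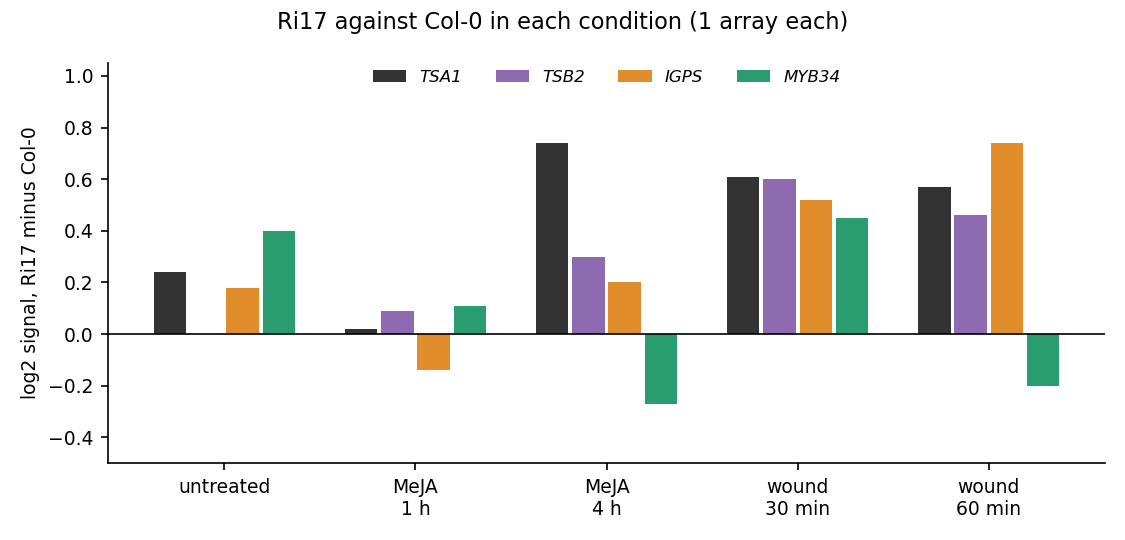
Log2 signal of Ri17 minus Col-0 for TSA1, TSB2, IGPS and MYB34 in each condition, 1 array of each genotype per bar. The enzyme genes are at 0.46 to 0.74 in both wounded conditions, and MYB34 is below 0 at 4 h of MeJA and 60 min of wounding.

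The probe sets most like each gene were ranked by Pearson's r of log2 signal over the 10 arrays, among probe sets of a single named gene. Those were probe sets given a single gene by the annotation table, plus listed genes named from deposited descriptions. The annotation table leaves out 8730 probe sets, and of these only listed genes could be ranked. For TSA1 the highest was PAT1 (0.965), followed by the monodehydroascorbate reductase gene ATMDAR2 (0.96), AT5G49530 (0.958), the glucosyltransferase gene UGT76E12 (0.95) and AT3G52870 (0.943). For TSB2 they were AT4G16146 (0.971), AT1G28190 (0.966), SERPIN1 (0.965), the RNA helicase-like AT3G58570 (0.963) and the proline oxidase-like AT5G38710 (0.955). IGPS had the mitochondrial carrier AT5G15640 (0.982), AT1G23850 (0.955), the protein kinase-like AT4G35500 (0.954), AT3G57280 (0.951) and AT5G50450 (0.95). For MYB34 they were the lipocalin gene TIL (0.978), AT5G11680 (0.969), the dehydrin gene COR47 (0.963), AT4G35110 (0.96) and the protein phosphatase AT3G05640 (0.956). PAT1 was the only enzyme of tryptophan synthesis among the 20. It was ranked only because it is on the tryptophan list, so its place is not the result of an even search. The shared probe sets of TSB2, ASB1 and PAI1 were not ranked. In the 5 Ri17 arrays alone these 20 correlations were 0.922 to 0.991, and in the 5 Col-0 arrays 0.934 to 0.994. The 20 were picked for high r over these same arrays, so the values within a genotype are no check of the choice.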

How the data were processed

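RNA of 10 plant samples was measured on ATH1 arrays, 1 per genotype and condition. The deposited values are linear signal intensities that the authors computed in GCOS, per the submitters' processing notes, which give no version. They had been scaled to a 2% trimmed mean of 500.1 on every array. The deposited log2 ratios and change p-values compare Ri17 over Col-0 within a condition, per the file headers. Deposited detection p-values and calls are per array.

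A floor of 37.7, which is the 75th percentile of the Absent signals, was applied before log2. Control probe sets (64) were left out, and probe sets Present on at least 2 arrays were kept (15382). The contrasts were fitted with limma 3.58.1 in R 4.3.3 (genotype plus condition, 4 residual degrees of freedom, eBayes, two-sided). With no repeats, the spread holds array noise together with any real genotype difference in response, and precision is limited by how few arrays there are. The fit was also run on simulated data with independent noise and known shifts at 4 h of MeJA and in Ri17. Those data held no genotype difference in response to a condition, so they do not check that part of the spread. TSA1, TSB2 and MYB34 were named from deposited descriptions and IGPS from the annotation table supplied for the array. Of 107 listed genes 47 had a named probe set and 44 were kept. Where a gene had several probe sets, the brightest on average was used. Spiked poly-A controls stood 0.53 log2 higher on the 4 MeJA arrays than on the 6 others (median of 27 probe sets). For 17 of the 27 the MeJA arrays and the others did not overlap, and the same share over all probe sets was not counted. The part of this control difference in the comparisons that involve MeJA arrays was not tested.

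The genes and lists were chosen with earlier results of these data known. Other list genes were named where they passed the threshold in a treatment contrast, up to 6 per list, with every measured tryptophan gene and MYB or MYC regulator and the 5 most similar genes. Alternatives changed the scaling, floor, filter, variance model, genotype term and arrays used. The other steps ran in pandas 2.3.3 and NumPy 2.4.6 under Python 3.11.15, and plots in Matplotlib 3.10.9. No sequences were printed, and promoter motifs were not analysed here.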

Additional observations from a re-analysis of the deposited data

Results flagged for a closer look

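In a few cases the genotypes or conditions went opposite ways, and none of these differences was tested. TSB2 at 1 h of MeJA minus untreated was 0.09 in Ri17 and -0.01 in Col-0. Ri17 minus Col-0 was -0.004 for TSB2 in untreated plants, where the other 4 conditions were above 0. For IGPS it was -0.14 at 1 h of MeJA and above 0 in the other 4. For MYB34 it was -0.27 at 4 h of MeJA and -0.20 at 60 min of wounding, against values above 0 in the other 3 conditions. Each is a difference between single arrays.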

How the results depend on the processing

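No paired analysis was possible because each genotype and condition has 1 array, so the groups compared share fewer than 2 replicate numbers. This concerns replicate numbers: the genotype term of the fit already compares arrays within a genotype, and the fit without it is among the alternatives below. Of 36 differences on the 4 genes, 18 were called, and 8 of these held in every alternative run: TSA1, TSB2 and IGPS at 4 h of MeJA and all 4 genes at 60 min of wounding against untreated, and TSB2 at 60 min of wounding against 1 h of MeJA. The other 10 were each lost in at least 1, and the cause was not tested. Outside the 36 were 30 min of wounding against either MeJA time and 60 min of wounding against 4 h of MeJA. Those comparisons, used for the order of the conditions, were not checked under the alternatives. Without the detection filter the differences kept their size and lost the call for IGPS (0.9) and MYB34 (-0.98) between 1 h and 4 h of MeJA, TSA1 (1.32) and IGPS (1.37) between 30 and 60 min of wounding, and TSA1 at 60 min of wounding against 1 h of MeJA (0.87). More probe sets are tested there, and the counts called were 1198 between the MeJA times against 2249 and 161 between the wounding times against 676. Without a genotype term IGPS (0.9), TSA1 (1.32) and TSA1 (0.87) lost the same calls, and MYB34 at 4 h against untreated passed (-0.68), as it did with a variance trend (-0.68). TSA1 at 1 h of MeJA passed with that trend (0.65) and with quantile normalisation (0.69). IGPS between the MeJA times was lost with quantile normalisation (0.89) and with the lower floor (0.9). With MeJA and untreated arrays alone TSA1 (1.21), IGPS (0.9) and MYB34 (-0.98) lost their calls between the MeJA times, and 1419 probe sets were called. With wounded and untreated arrays alone TSB2 at 30 min (0.97) and TSA1 (1.32) and IGPS (1.37) between the wounding times lost theirs, and limma called 1467 probe sets at 30 min, 2628 at 60 min and 0 between the times. TSB2 at 1 h of MeJA was -0.01 with median scaling, MYB34 in Ri17 minus Col-0 was -0.08 in the MeJA pairs alone, and r of MYB34 was 0.83 with TSA1 without the MeJA 4 h pair, and -0.39 with TSB2 and -0.48 with IGPS without the arrays wounded for 60 min.

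Leaving out 1 array at a time gave 2467 to 4911 called probe sets at 1 h and 3149 to 5828 at 4 h of MeJA against untreated, 1452 to 3143 at 30 min and 2781 to 3922 at 60 min of wounding, 224 to 2516 between the MeJA times, 0 to 673 between the wounding times and 2083 to 5733 for 60 min of wounding against 1 h of MeJA, each by limma. Differences between the MeJA times were then 0.95 to 1.47 for TSA1, 1.48 to 1.72 for TSB2, 0.62 to 1.17 for IGPS and -1.21 to -0.75 for MYB34. Between the wounding times they were 1.22 to 1.43 for TSA1 and 1.09 to 1.65 for IGPS, and for 60 min of wounding against 1 h of MeJA 0.61 to 1.13 for TSA1, 1.08 to 1.63 for IGPS and 1.12 to 1.5 for MYB34. TSB2 was 0.77 to 1.16 at 30 min of wounding and -0.15 to 0.22 at 1 h of MeJA. The wounding minus MeJA difference of Ri17 minus Col-0, not called, was -0.15 to 0.57 for TSA1 and -0.13 to 0.53 for MYB34.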
